A study of Sus scrofa with 3 samples.

Results

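The 10 genes described here dispose of excess cholesterol in the liver. They encode the liver X receptors (NR1H2, NR1H3), sterol efflux transporters (ABCA1, ABCG1, ABCG5, ABCG8), the ligase MYLIP, and the enzymes that make or split cholesterol esters (SOAT1, SOAT2, NCEH1). They were chosen by name from the 22945 mRNA features of the deposited expression tables. All 10 were found, and each had an FPKM of 1 or more in every library.

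Liver RNA came from Chinese Wuzhishan miniature pigs, all of them male and all on a diet high in fat and cholesterol (HFC). The labels give an age of 6 to 7 months, which by the methods of the study was the age when the animals were obtained, so they were older when the livers were taken. IM pigs were intact after a sham operation, CM pigs were castrated, and CMT pigs were castrated and received testosterone propionate by intramuscular injection from the day of castration. Each group was sequenced as 1 pooled library, for which the labels give 3 pigs. The methods describe larger groups and do not state how many animals entered a pool. No group on a standard diet was analysed here, so the values describe testosterone status under the HFC diet and not the diet itself. With 1 library per group no difference has a replicate check, the variation between pigs is unknown, and no p-value was computed. CM versus IM and CMT versus CM share the CM library and are not independent of each other.

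Liver X receptors are nuclear receptors that bind DNA with a retinoid X receptor partner and are switched on by oxysterols, which are oxidised forms of cholesterol. Their classic targets move cholesterol out of cells (ABCA1 and ABCG1), out of hepatocytes into bile (ABCG5 and ABCG8), and limit its uptake (MYLIP, whose protein marks lipoprotein receptors for degradation). Cholesterol that stays in the cell is esterified by SOAT enzymes for storage or for packing into lipoproteins, and ester hydrolases such as NCEH1 set it free again.

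Values are FPKM as deposited, that is, reads per kilobase of transcript scaled by a factor for each library, so levels of different genes are per length. Behind each value lies a number of reads that was recovered from the steps in the FPKM values, between 46 (NCEH1 in CMT) and 12285 (NR1H3 in CM) for these genes. Ranges in brackets after a ratio are 95% exact binomial intervals on these reads. These intervals hold counting error and nothing else. Where the recovered reads lack a common factor they are too wide, and where both mates of a read pair were counted they are too narrow. A gene counted as changed if it reached an FPKM of 1 in each of the 3 libraries and differed at least 1.5-fold, a fold change that the study also used. Shares and medians over all mRNA features cover the 15613 that reached this minimum. Shares of counting intervals cover the 14702 of them with recovered reads.

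NR1H3, or LXR alpha, the receptor typical of liver and macrophages, had the highest level of the 10 genes in every library. Its FPKM was 1061.5 in CM, compared with 1117 in IM and 1279 in CMT. Of the summed level of the 10 genes it made up 42.2% in CM, 46.1% in IM and 48.6% in CMT. NR1H2, or LXR beta, which most tissues express, was at 291, 233 and 282 in IM, CM and CMT. Both receptors had their lowest value in CM.

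ABCA1, which hands cholesterol to lipid-poor apolipoprotein A1, had an FPKM of 264 in IM, against 300.1 in CM and 266 in CMT. ABCG1, which moves cholesterol towards HDL particles, was at 175 in CM, compared with 88.2 in IM and 79.9 in CMT. The CM library stood above both others for each of these transporters, by a wide margin for ABCG1 and a narrow one for ABCA1. ABCG5 and ABCG8 encode the partner subunits of the transporter that secretes sterols into bile. ABCG5 was at 106, 186 and 117 in IM, CM and CMT, and ABCG8 at 182 in IM, against 204 in CM and 204 in CMT. ABCG5 was thus highest in CM, while ABCG8 was at the same level in CM and CMT. MYLIP was at 76.7 in CM, compared with 55.0 in IM and 53.8 in CMT.

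SOAT1, the acyltransferase found in many cell types including macrophages, had the lowest level of the 10 genes in every library, with an FPKM of 26.7, 39.8 and 24.2 in IM, CM and CMT. SOAT2, the acyltransferase of hepatocytes and intestine that supplies cholesterol esters for lipoproteins, was at 256 in IM, against 186 in CM and 287 in CMT. NCEH1, a neutral cholesterol ester hydrolase studied mainly in macrophages, was at 53.8 in CM, compared with 38.9 in IM and 36.1 in CMT. The enzymes thus showed opposite orders, with SOAT1 and NCEH1 highest in CM and SOAT2 lowest there. These are bulk livers, in which fewer cells of a type and less RNA per cell cannot be told apart.

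**Figure D1:**
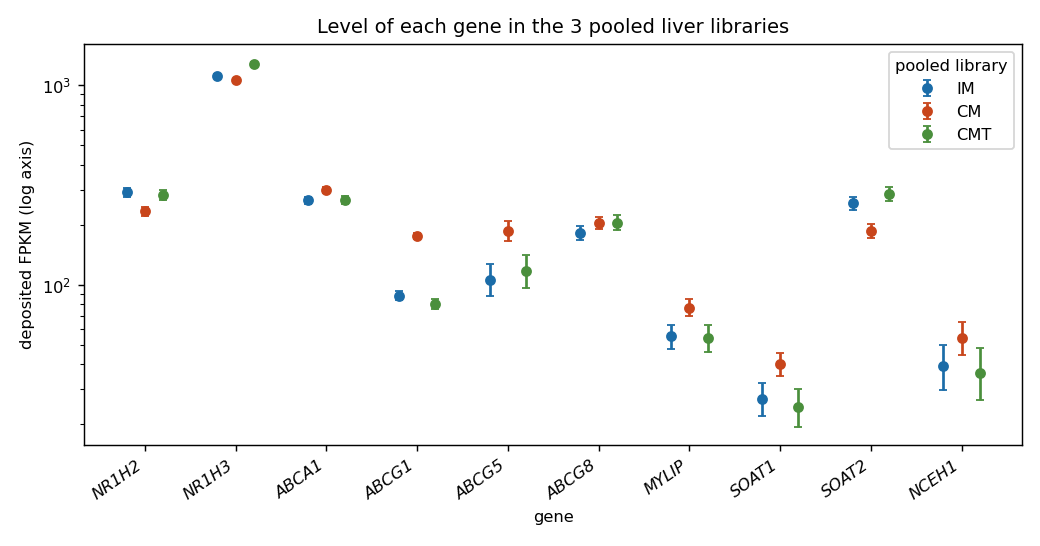
FPKM of each of the 10 genes (log axis) in the pooled IM, CM and CMT libraries, with bars for 95% counting intervals from exact Poisson limits of the recovered reads. ABCG1, ABCG5, MYLIP, SOAT1 and NCEH1 have their highest point in CM, whereas SOAT2 and both receptors have their lowest point there. NR1H3 lies far above the other 9 genes in all 3 libraries.

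The order of the levels was similar in the 3 libraries at its ends and differed in the middle. In IM, NR1H3 was followed by NR1H2, ABCA1, SOAT2, ABCG8, ABCG5, ABCG1, MYLIP, NCEH1 and SOAT1. The counting intervals overlapped there for ABCA1 and SOAT2, ABCG5 and ABCG1, MYLIP and NCEH1, and NCEH1 and SOAT1. In CM the order was NR1H3, ABCA1, NR1H2, ABCG8, ABCG5, SOAT2, ABCG1, MYLIP, NCEH1 and SOAT1. SOAT2 stood below both subunits of the biliary transporter in this order, although ABCG8 and ABCG5, ABCG5 and SOAT2, SOAT2 and ABCG1, and NCEH1 and SOAT1 had overlapping intervals. In CMT, SOAT2 came directly after NR1H3, ahead of NR1H2, ABCA1, ABCG8, ABCG5, ABCG1, MYLIP, NCEH1 and SOAT1. SOAT2 overlapped with NR1H2 there, NR1H2 with ABCA1, MYLIP with NCEH1, and NCEH1 with SOAT1.

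To ask how testosterone deficiency went along with these genes, CM was compared with IM. ABCG1 and ABCG5 were at least 1.5-fold higher in CM, none of the 10 genes was at least 1.5-fold lower, and SOAT1 lay just under the threshold. Of 15613 mRNA features above the FPKM minimum, 11.1% were at least 1.5-fold higher and 12.1% at least 1.5-fold lower in CM. The ABCG1 ratio was 1.99 (1.87 to 2.11) from 1396 reads in IM and 3777 in CM, and 4.70% of all mRNA features had a larger one. For ABCG5 the ratio was 1.76 (1.42 to 2.19) from 122 and 292 reads, and 6.92% of mRNA features had a larger one.

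The other LXR targets among the 10 genes had smaller ratios in the same direction. MYLIP had a CM to IM ratio of 1.39 (1.18 to 1.66), ABCA1 one of 1.14 (1.07 to 1.20) and ABCG8 one of 1.12 (1.004 to 1.24). All 5 of the target genes were thus above 1, and 2 of the 5 passed 1.5-fold. Over all mRNA features 48.0% had a ratio above 1, and of 13 other LXR target genes 5 had one. The receptors themselves lay below 1, NR1H2 at 0.802 (0.748 to 0.860) and NR1H3 at 0.9503 (0.925 to 0.976). When the values were scaled to the summed recovered reads, the log2 ratio of NR1H3 turned from -0.074 to 0.21, while that of NR1H2 stayed below 0 at -0.038.

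Among the ester enzymes, SOAT1 had a CM to IM ratio of 1.49 (1.19 to 1.89) and NCEH1 one of 1.38 (1.01 to 1.92). SOAT2 lay on the other side, at 0.726 (0.651 to 0.810). The counting interval left out 1 for all 10 genes, 7 above and 3 below, and for 8 of them, without ABCG8 and NCEH1, when the reads were halved to allow for a count of both mates. Over all mRNA features with recovered reads the interval left out 1 for 49.0%, so such an interval was common. The median log2 ratio of the 10 genes was 0.33, against -0.020 for all mRNA features.

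**Figure D2:**
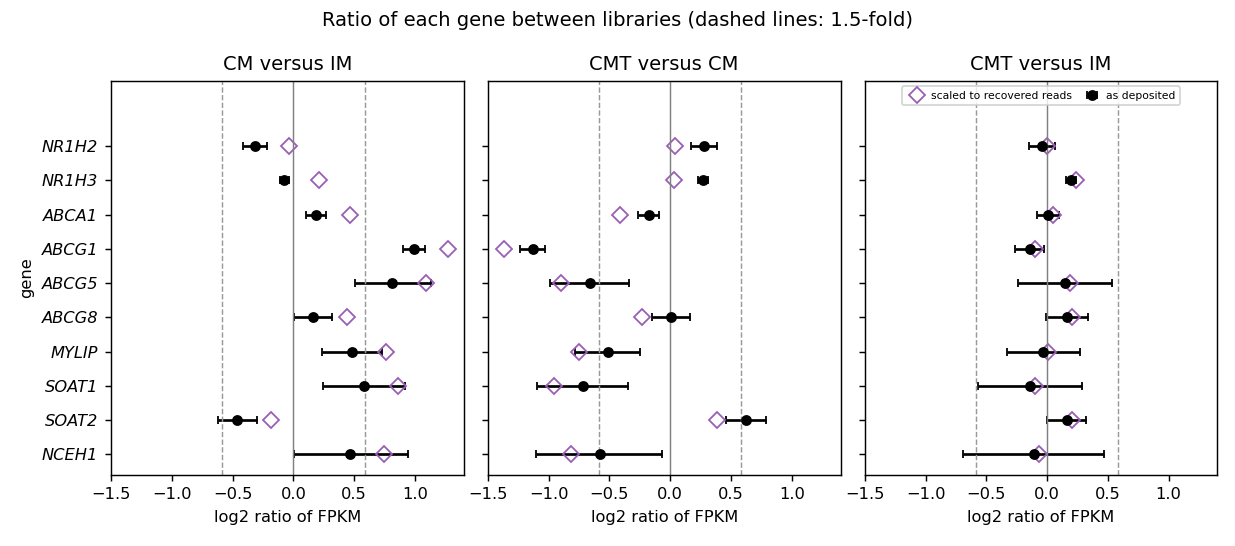
log2 ratio of FPKM for each of the 10 genes in the 3 comparisons, 1 panel each. Black points with bars are the deposited values with 95% exact binomial counting intervals, open diamonds the values scaled to the summed recovered reads, and dashed lines mark 1.5-fold. ABCG1 lies near 0.99 and -1.13 in the first 2 panels and SOAT2 on the opposite side of 0, while all black points of the third panel lie between -0.14 and 0.20. NR1H3 in CM versus IM, ABCG8 in CMT versus CM and MYLIP in CMT versus IM change side between point and diamond.

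Testosterone replacement was examined by comparing CMT with CM. ABCG1, ABCG5 and SOAT1 were at least 1.5-fold lower in CMT and SOAT2 was at least 1.5-fold higher. Over all mRNA features 13.5% were at least 1.5-fold lower and 12.1% at least 1.5-fold higher. ABCG1 had a CMT to CM ratio of 0.456 (0.425 to 0.489), and 5.19% of mRNA features had a lower one. SOAT1 was at 0.608 (0.467 to 0.786), from 226 reads in CM and 82 in CMT. ABCG5 was at 0.632 (0.503 to 0.789), from 292 and 110 reads. SOAT2 had a ratio of 1.54 (1.38 to 1.72) and 11.1% of mRNA features had a larger one. Its log2 ratio was 0.62 as deposited and 0.39 with values scaled to the recovered reads, and it passed 1.5-fold under 2 of 5 scalings.

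NCEH1, at 0.671 (0.466 to 0.952), and MYLIP, at 0.702 (0.582 to 0.843), were lower in CMT by less than 1.5-fold. ABCA1 was at 0.886 (0.834 to 0.940). ABCG8 had a ratio of 1.004 (0.899 to 1.12), whose log2 value of 0.0051 turned to -0.0085 with median ratio scaling and to -0.23 with scaling to the recovered reads. The receptors were both at 1.21, NR1H2 with an interval of 1.12 to 1.30 and NR1H3 with one of 1.17 to 1.24. The interval left out 1 for 9 of the 10 genes, against 48.9% of all mRNA features with recovered reads. The median log2 ratio of the 10 genes was -0.34, and that of all mRNA features 0.013.

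Between CMT and IM none of the 10 genes differed 1.5-fold, while 6.67% of mRNA features were at least 1.5-fold higher and 10.1% at least 1.5-fold lower in CMT. The ratios ran from 0.906 for ABCG1 to 1.15 for NR1H3. The interval left out 1 for NR1H3 (1.11 to 1.18), ABCG1 (0.835 to 0.983) and SOAT2 (1.001 to 1.25), against 37.1% of all mRNA features, and with the reads halved for NR1H3 alone. For genes with few reads the intervals were wide. That of NCEH1 ran from 0.619 to 1.38 and that of ABCG5 from 0.850 to 1.45. By counting error alone, the reads are compatible with any ratio in these ranges. The median log2 ratio of the 10 genes was -0.012, against -0.0072 for all mRNA features.

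CM held the highest or the lowest value of most of these genes, as it did of most mRNA features. As deposited, it held the highest value of 6 genes (ABCA1, ABCG1, ABCG5, MYLIP, SOAT1 and NCEH1) and the lowest of 3 (NR1H2, NR1H3 and SOAT2). With scaling to the recovered reads, NR1H3 was lowest in IM and ABCG8 highest in CM. As deposited, IM held the highest value of 1 gene and the lowest of 3, and CMT the highest of 3 and the lowest of 4. Over all mRNA features CM held the highest value of 35.2% and the lowest of 38.7%. These shares were 31.6% and 28.6% for IM, and 33.2% and 32.7% for CMT.

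The scaling of the libraries bears on these numbers, because the deposited values are not proportional to the recovered reads. Scaling to the recovered reads moved the median log2 ratio of all mRNA features from -0.020 to 0.26 for CM versus IM and from 0.013 to -0.23 for CMT versus CM. The shares of features at least 1.5-fold higher and lower then became 22.0% and 6.42% for CM versus IM, and 6.82% and 22.4% for CMT versus CM. Relative to the median of all mRNA features, the log2 ratio of CM to IM was 1.01 for ABCG1, 0.83 for ABCG5, 0.60 for SOAT1, -0.30 for NR1H2 and -0.44 for SOAT2. ABCG1 and ABCG5 passed 1.5-fold in CM versus IM under 5 of 5 scalings, the deposited one included, and SOAT1 under 4. In CMT versus CM, ABCG1, ABCG5 and SOAT1 passed under 5 of 5, NCEH1 under 4, MYLIP under 3 and SOAT2 under 2. No gene of the 10 passed in CMT versus IM under any of the 5.

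Ratios of 2 genes within a library do not depend on that scaling. These pairs were chosen after seeing the data, and the intervals of their changes come from exact conditional odds ratios of the reads. The ABCG5 level was 0.581 times the ABCG8 level in IM, 0.913 times in CM and 0.575 times in CMT. The ratio in CM was 1.57 times that in IM (1.24 to 2.01), and that in CMT was 0.629 times that in CM (0.488 to 0.808). The subunits of the biliary sterol transporter were thus nearest to equal levels in CM. The factor between CMT and IM was 0.990 (0.737 to 1.33), an interval that holds 1.

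ABCG1 was at 0.334 times the ABCA1 level in IM, 0.584 times in CM and 0.301 times in CMT. The factor between CM and IM was 1.75 (1.61 to 1.90) and that between CMT and CM 0.515 (0.470 to 0.565). ABCG1 thus took a larger part of this pair in CM than in the other libraries.

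SOAT1 was at 0.104 times the SOAT2 level in IM, 0.214 times in CM and 0.0846 times in CMT. In CM the ratio was 2.06 times that in IM (1.59 to 2.67), and in CMT it was 0.395 times that in CM (0.296 to 0.523). SOAT2 had the higher level of the pair in every library. NCEH1 was at 1.46, 1.35 and 1.49 times the SOAT1 level in IM, CM and CMT, with a factor of 0.926 (0.620 to 1.39) between CM and IM. NR1H2 was at 0.260 times the NR1H3 level in IM, 0.220 times in CM and 0.221 times in CMT. Here IM differed from both castrated groups, by a factor of 0.844 (0.783 to 0.910) for CM and 0.848 (0.781 to 0.920) for CMT.

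**Figure D3:**
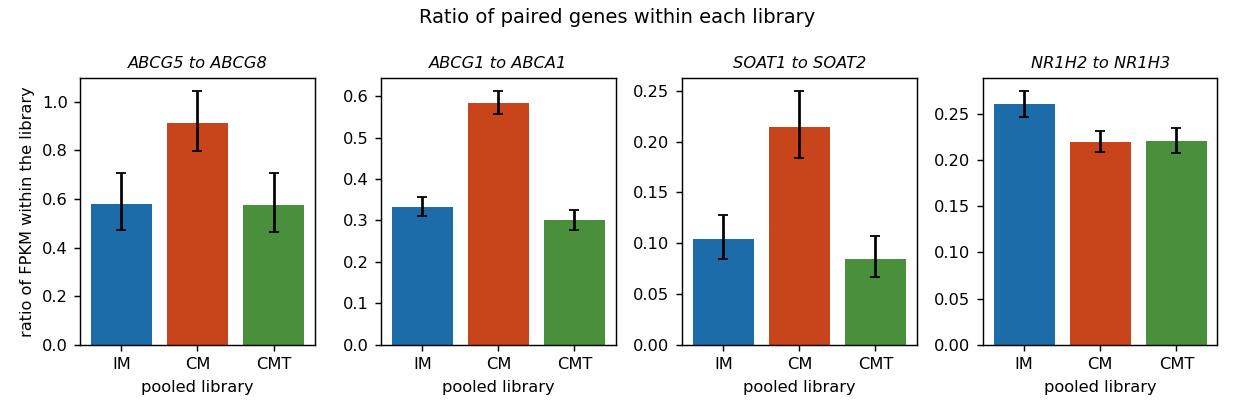
Ratio of the FPKM of 2 genes within the IM, CM and CMT libraries (linear axes from 0), with 95% exact binomial counting intervals. ABCG5 to ABCG8, ABCG1 to ABCA1 and SOAT1 to SOAT2 are highest in CM, at 0.913, 0.584 and 0.214, whereas NR1H2 to NR1H3 is highest in IM, at 0.260.

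Some reads of these genes may belong to neighbours. In the RefSeq annotation of Sscrofa11.1, another build than the Sscrofa10.2 genome of the files, ABCG5 and ABCG8 lie next to each other. There the span of ABCG5 overlaps DYNC2LI1, and that of NR1H3 overlaps MADD and ACP2. The library kit does not mark the strand, so reads in sequence that overlapping genes share cannot be told apart by strand. Only whole gene spans were compared, and overlap of exons was not examined. DYNC2LI1 was at 58.6, 34.6 and 53.2 in IM, CM and CMT, the opposite order to ABCG5. MADD was at 44.8, 59.5 and 43.6 in the same libraries, the opposite order to NR1H3. ACP2 was at 600.3, 404 and 625, the same order as NR1H3. The part of neighbouring genes in these values was not tested.

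The rest of sterol handling was described with 78 other genes in 7 lists. Of these, 68 were matched by symbol and 64 passed the FPKM minimum. At least 1.5-fold higher in CM than in IM were 6 genes and lower were 13, with a median log2 ratio of -0.16. In CMT versus CM, 14 were higher and 5 lower, with a median of 0.22. Between CMT and IM, 8 were higher and 6 lower. These counts moved with the scaling, which shifts all genes alike. With values scaled to the recovered reads, 13 genes stood higher and 6 lower in CM versus IM, with a median of 0.12, and 10 were higher and 11 lower in CMT than in CM, with a median of -0.020. Relative to the median of all mRNA features, the median of the 64 genes was -0.14 in CM versus IM and 0.21 in CMT versus CM under both scalings. The shares of all mRNA features were 11.1% higher and 12.1% lower in CM versus IM as deposited, and 22.0% and 6.42% after scaling. For CMT versus CM they were 12.1% and 13.5% as deposited, and 6.82% and 22.4% after scaling. For CMT versus IM they were 6.67% and 10.1% as deposited. Counts in the next paragraphs are for the deposited values unless another scaling is named.

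No gene among the 8 LXR partners and coregulators that passed the minimum reached 1.5-fold in any comparison, and 1 was lower in CMT than in CM with scaling to the recovered reads. NCOA1, a coactivator of nuclear receptors, was at 73.4 in IM, against 90.4 in CM and 65.8 in CMT, with a CM to IM ratio of 1.23 (1.12 to 1.36). NCOA3 and MED1 were at CM to IM ratios of 0.821 and 0.888.

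Of 13 other LXR target genes, 1 was higher and 2 were lower in CM than in IM, and 3 were higher in CMT than in CM. With scaling to the recovered reads, 4 stood higher and 0 lower in CM versus IM. SCD, the desaturase that makes monounsaturated fatty acids, was at 1414 in CM, compared with 788 in IM and 1506 in CMT, so it was high in both castrated groups. FASN, the fatty acid synthase, was at 318, 198 and 266 in IM, CM and CMT. MLXIPL, which encodes the glucose-responsive factor ChREBP, was at 725 in IM, against 474 in CM and 731 in CMT. Outside the rule for named genes, and picked after their values were seen, SREBF1 and LPCAT3 were highest in CMT. SREBF1, which encodes the lipogenic factor SREBP1, was at 1169 in CM, compared with 917 in IM and 1823 in CMT. LPCAT3, a phospholipid acyltransferase, was at 220, 179 and 360.3 in IM, CM and CMT. None of the targets named here therefore had its highest value in CM, where ABCG1 and ABCG5 had theirs.

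Of 7 genes that make or remove oxysterols, the LXR ligands, 4 were at least 1.5-fold lower and 1 was higher in CM relative to IM, and 5 of the 7 had a ratio below 1. Their median log2 ratio was -0.61, and it was -0.33 with scaling to the recovered reads, where 2 were lower and 2 higher. Genes that make and genes that remove oxysterols are pooled in these numbers, which therefore give no direction for the ligands. CYP27A1, which makes 27-hydroxycholesterol, was at 4674 in IM, against 2191 in CM and 4553 in CMT, a CM to IM ratio of 0.469 (0.463 to 0.474). CYP39A1 and CYP7B1, both oxysterol 7-alpha-hydroxylases, had ratios of 0.420 (0.394 to 0.447) and 0.605 (0.562 to 0.651). CYP7A1, the rate-limiting enzyme of bile acid synthesis, was at 1531 in CM, compared with 937 in IM and 1177 in CMT. CYP11A1 was listed at 0 in all 3 libraries.

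Among 12 genes of intracellular sterol transport, 2 were higher and 1 was lower in CM than in IM. GRAMD1B, which carries cholesterol from the plasma membrane to the endoplasmic reticulum, was at 5.49, 21.0 and 5.37 in IM, CM and CMT. Its CM to IM ratio was 3.83 (3.10 to 4.78) and its CMT to CM ratio 0.256 (0.200 to 0.323). STARD4, a soluble cholesterol carrier, was at 245 in IM, against 97.3 in CM and 269 in CMT, a CM to IM ratio of 0.397 (0.331 to 0.474). STARD5 also passed 1.5-fold, but on 6 reads in IM and 13 in CM.

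Of the 12 genes of HDL and biliary lipid transport, 1 was higher and 3 were lower in CM than in IM, and 4 were higher and 1 was lower in CMT than in CM. With scaling to the recovered reads, 1 was higher and 1, LIPG, lower in CM than in IM. LIPG, the endothelial lipase that acts on HDL phospholipids, was at 110 in CM, compared with 894 in IM and 594 in CMT, a CM to IM ratio of 0.123 (0.114 to 0.134). LCAT, which esterifies cholesterol in plasma HDL, was at 1870, 1058 and 2213 in IM, CM and CMT. NPC1L1, which takes sterol back up from bile, had a different order, at 62.2 in IM, against 36.8 in CM and 15.5 in CMT. ATP8B1, a phospholipid flippase of the bile canaliculus, was at 149 in CM, compared with 96.3 in IM and 117 in CMT.

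The other ester hydrolases and acyltransferases numbered 6, of which 1 was higher and 2 were lower in CM than in IM. With scaling to the recovered reads 2 stood higher and 0 lower. CES1, the most abundant of them, was at 14576, 8639 and 17336 in IM, CM and CMT, without recovered reads. CES2, a carboxylesterase with a much lower level, was at 12.2 in IM, against 22.0 in CM and 13.0 in CMT. PNPLA2, the triglyceride lipase of lipid droplets, was at 277 in CM, compared with 405 in IM and 364 in CMT, less than 1.5-fold apart.

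Of 9 other ABCA and ABCG transporters above the FPKM minimum, none was 1.5-fold higher in CM than in IM and 2 were lower. ABCA4 was at 21.5, 7.26 and 18.4 in IM, CM and CMT, and ABCA10 at 6.39 in IM, against 2.96 in CM and 9.51 in CMT. ABCG2, an exporter of drugs and urate, was at 68.5 in CM, compared with 93.4 in IM and 51.3 in CMT.

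**Figure D4:**
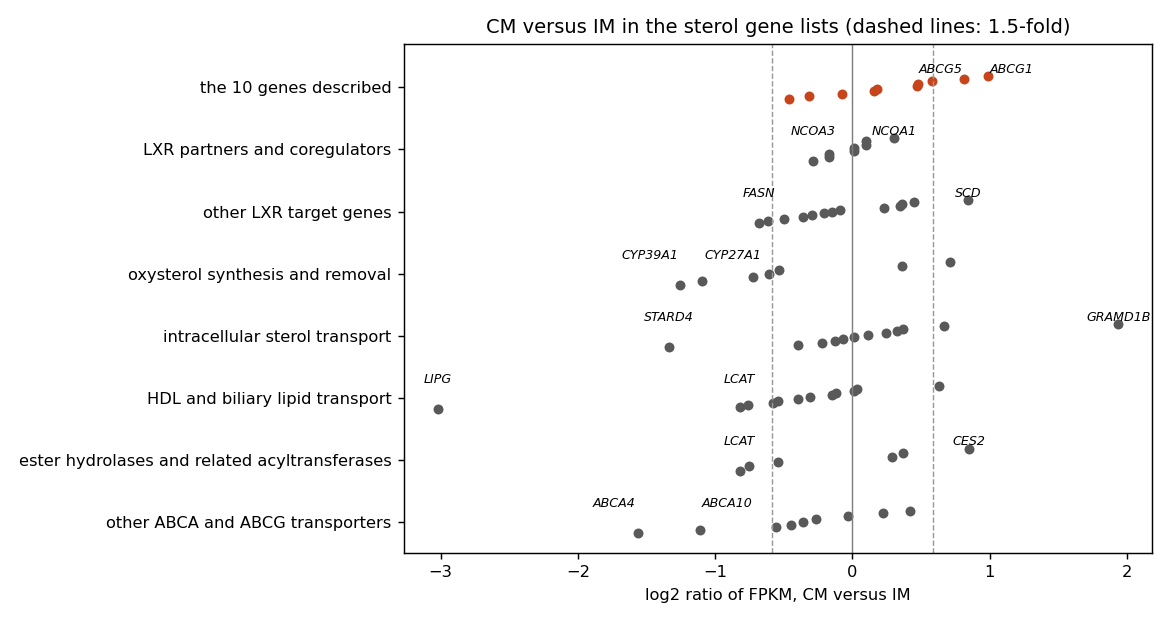
log2 ratio of FPKM of CM versus IM for the genes above the FPKM minimum in the list of 10 genes (coloured) and in the 7 other sterol lists (grey), with the 2 genes of the largest ratio in either direction named in each list and dashed lines at 1.5-fold. Each point is 1 gene and 1 pair of libraries. LIPG and ABCA4 lie farthest to the left and GRAMD1B farthest to the right, and ABCG1 and ABCG5 lie to the right of the upper line.

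ABCA1, ABCG1, SOAT1 and NCEH1 are also expressed by macrophages, so cell type markers were set beside them. Of 15 macrophage markers 12 were matched, and their FPKM summed to 22814, 21233 and 23887 in IM, CM and CMT, with none at 0. Above 1 in CM versus IM were 5 of the 12, with MSR1 at 1.56 and ITGAM at 1.82 past 1.5-fold, while MARCO was at 0.200. Their median log2 ratio was -0.094, and 0.19 with scaling to the recovered reads, where 9 of the 12 were above 1. All 8 T and NK cell markers were above 1 in CM versus IM, 1 of them by at least 1.5-fold, and 7 of 8 were at least 1.5-fold lower in CMT than in CM. With scaling to the recovered reads 6 of 8 passed 1.5-fold in the first comparison and 8 of 8 in the second. Their sum was 516 in IM, against 704 in CM and 381 in CMT. Cholangiocyte markers, 4 of 6 matched, summed to 805 in CM, compared with 856 in IM and 1185 in CMT, and 3 of them were at least 1.5-fold higher in CM than in IM. SPP1 made up most of these sums, at 812, 729 and 1136 in IM, CM and CMT. The other markers, EPCAM, CFTR and SOX9, had CM to IM ratios of 1.71, 1.68 and 1.83 and CMT to CM ratios of 0.661, 0.457 and 0.671, although SOX9 rested on 8 reads in IM and 20 in CM. The 7 matched endothelial markers summed to 3817, 3102 and 3542 and the 8 stellate cell markers to 1472, 1549 and 1293 in IM, CM and CMT. The part of these cells in the values of the 10 genes was not tested.

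The tissue label was checked with 9 hepatocyte markers, which summed to 922001, 680606 and 677483 in IM, CM and CMT. Albumin (ALB) alone was at 690375, 476360 and 445509. Of the 9 markers, 8 had a CM to IM ratio below 1, with a median log2 ratio of -0.45, and 7 had a CMT to CM ratio above 1, with a median of 0.35. ASGR1, at 1.65, and TAT, at 1.62, passed 1.5-fold in CMT versus CM. SOAT2 had its lowest value in CM, as most of these markers did, and ABCG1 and ABCG5 had their highest value there. With scaling to the recovered reads the medians were -0.17 and 0.12, with 6 of the 9 markers below 1 in the first comparison and 6 of 9 above 1 in the second. The part of hepatocyte content in the values of the 10 genes was not tested.

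The genes closest in pattern to ABCG1 and ABCG5 were sought among 12127 mRNA features that reached an FPKM of 10 in each library, by the distance of their log2 ratios of CM to IM and CMT to CM. Closest to ABCG1 were PARP14, at a distance of 0.041, LOC100624307 at 0.053 and PLSCR1 at 0.061. PARP14 was at 113 in IM, against 226 in CM and 100.3 in CMT. Closest to ABCG5 were ZBTB24 at 0.0097, FBXW4 at 0.010 and XCR1 at 0.024. Within a distance of 0.1 lay 12 features for ABCG1 and 37 for ABCG5. With 3 libraries such a likeness describes 2 ratios and no more.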

How the data were processed

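Total RNA of liver was pooled in equal amounts within each group, selected for poly-A, prepared with a TruSeq RNA kit and sequenced as paired ends on an Illumina HiSeq instrument. Per the labels, FastQC and TopHat were used. The methods of the study give Sscrofa10.2 as the genome. The authors deposited FPKM values for 34579 features per library, and the counting program and annotation are not given in the sources used here. The FPKM values were compared as ratios, without rescaling or a pseudocount.

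Reads were recovered from the steps of the values (lengths up to 10000 bases, tolerance 0.0001 reads) for 23093 of the 24277 features above 0, or 95.1%. Their sums were 32197629, 36126750 and 25419901 for IM, CM and CMT. An FPKM of 1 on 1 kb stood for 2.51, 3.42 and 2.04 reads. The recovery was tested on simulated data. The recovered length was the shortest that made all 3 values whole, 459 bases for ABCG5 and 625 for NCEH1. Features with 2 reads outnumbered those with 1, by 1168 against 1117 for IM, 1172 against 1165 for CM and 1216 against 1047 for CMT. Intervals, at 95%, come from exact Poisson limits for a level, exact binomial limits for a ratio of 2 values and conditional odds ratios for the change of a pair ratio.

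The 10 genes and the lists were chosen with earlier results of these data known. The rule for naming genes beside the 10 took up to 4 genes of each sterol list. They had the largest log2 ratio of CM to IM in either direction and an FPKM of 1 or more in each library. The rule also took the 3 features closest in pattern to each of the 10 genes that CM separated by 1.5-fold from both other libraries. CREBBP, CD5L, OSBPL1A and ABCA9 met the rule but were not described above. Their CM to IM ratios were 0.890, 0.709, 0.761 and 0.680. Results were also computed with a minimum FPKM of 10 or without a minimum, with a pseudocount of 1, a 2-fold threshold, 4 other scalings, a counting interval that leaves out 1 and, chosen after seeing the data, halved reads and ratios within libraries. A further list of genes is not reported here. No library was left out, and no sequence was used. RefSeq gene spans of Sscrofa11.1 served only to find neighbouring and overlapping genes. Scripts ran under Python 3.11.15 and used scipy 1.17.1, pandas 2.3.3, numpy 2.4.6 and matplotlib 3.10.9.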

Additional observations from a re-analysis of the deposited data

How the results depend on the processing

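For CM versus IM, the number of genes among the 10 that passed 1.5-fold, 2 as deposited, was 5 with values scaled to the summed recovered reads and 5 with equal column sums, where MYLIP, SOAT1 and NCEH1 joined ABCG1 and ABCG5, and 0 at a threshold of 2-fold. For CMT versus CM the number was 1, ABCG1, at 2-fold. With upper quartile, recovered read or column sum scaling it was 5, with 0 higher and 5 lower, where SOAT2 no longer passed and MYLIP and NCEH1 joined ABCG1, ABCG5 and SOAT1. The median log2 ratio of the 10 genes moved for CM versus IM to 0.61 with recovered reads and 0.58 with column sums, and for CMT versus CM to -0.58 and -0.59. The median of all mRNA features moved with it, to 0.24 and -0.23 with column sums. Of the 30 log2 ratios of the 10 genes in 3 comparisons, 30 stayed within their counting interval with a pseudocount or median ratio scaling, 28 with the upper quartile and 17 with either of the other scalings. The sign changed for NR1H3 in CM versus IM (0.18 with column sums), ABCG8 in CMT versus CM, ABCA1 in CMT versus IM (-0.028 with the upper quartile) and MYLIP in CMT versus IM (0.010 with recovered reads). Leaving out a replicate was not possible with 1 library per group. No paired analysis was possible because each group has 1 library. Depth limits NCEH1, SOAT1 and ABCG5 most, with 46, 82 and 110 reads in CMT.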
